A study of Mus musculus with 24 samples.

Results

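The 47 genes described here encode the machinery that copies nuclear DNA: the origin recognition complex, the factors that license origins, the helicase and its activators, the polymerases, the sliding clamp with its loader, the single-strand binding protein RPA, 2 enzymes that process and join Okazaki fragments, and ribonucleotide reductase and thymidylate synthase, which supply deoxynucleotides. They were chosen by gene symbol from general knowledge of these complexes, out of 46078 genes listed in each of the 2 expression tables. Earlier results of these data were known at that time, so the choice was not blind to them. All 47 were found in both tables, and all 47 passed the filter on low values in both.

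DNA is copied from origins that are marked by the origin recognition complex (ORC). CDC6 and CDT1 load the MCM2-7 helicase onto these origins as an inactive ring, and the kinase CDC7 with its activator DBF4 then allows CDC45 and the GINS complex to join and start unwinding. Polymerase alpha with primase lays down primers, polymerases delta and epsilon extend them while held by the PCNA clamp, and the supply of deoxynucleotides is set largely by ribonucleotide reductase. Many of these genes are known targets of E2F transcription factors and are transcribed in cells that enter S phase. In skeletal muscle, satellite cells are the resting stem cells that re-enter the cell cycle after injury, and replication genes are low in resting cells and high in cycling ones.

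The study asked what loss of CHD4, the ATPase of the NuRD chromatin remodelling complex, does to satellite cells, and RNA-seq was available for 16 mouse samples in 4 groups of 4. All came from C57BL/6 mice aged 2 to 4 months. In culture, AdCRE myoblasts and AdGFP myoblasts were both Chd4fl/fl cells grown from satellite cells of resting muscle under conditions that keep them dividing; they had received adenovirus for 72 hours, coding for Cre in AdCRE and for GFP in AdGFP. In muscle, the groups were Chd4dPax7ER and Chd4fl/fl, and satellite cells were taken 3 days after injury with cardiotoxin by sorting for absence of SCA1 and CD45 and presence of alpha7-integrin and CD34. In culture, Cre is present only in AdCRE cells, so effects of Cre and of Chd4 loss cannot be told apart. In muscle, only the Chd4dPax7ER label names Pax7ER, so deletion is by name limited to Pax7-expressing cells, and how Chd4fl/fl mice were treated is not stated in the labels. Nothing in the labels says that replicates are separate animals or cultures, so a p-value here reflects only how far these samples spread, which may be technical.

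Values are RPKM, read counts scaled to gene length and to the mapped reads of the library, which correct for length and library size but do not give the number of reads. Chd4 itself averaged 20.8 ± 3.49 RPKM in AdCRE and 75.1 ± 7.75 in AdGFP, and 56.7 ± 8.37 RPKM in Chd4dPax7ER and 126 ± 6.77 in Chd4fl/fl (SD, n = 4 each). Libraries of the same replicate number deviated together in culture and not in muscle, so culture is also given with a block for replicate number. Several libraries also stood apart for the replication genes as a whole. AdCRE replicate 1 was the lowest of the 8 culture libraries for 43 of the 47 genes and AdGFP replicate 4 the highest for 42, while in muscle Chd4dPax7ER replicate 2 was the lowest of 8 for 42 genes and Chd4fl/fl replicate 1 the highest for 40. All 8 markers of the myogenic lineage, Pax7, Myod1, Myf5, Itga7, Vcam1, Cdh15, Cd34 and Des, were at or above 0.5 RPKM in all 16 libraries. Their summed level was 953 to 1186 RPKM in Chd4dPax7ER and 583 to 761 RPKM in Chd4fl/fl, without overlap, with Myod1, Itga7 and Des higher and Pax7 lower past the threshold; in culture it was 1146 to 1454 RPKM in AdCRE and 1175 to 1232 RPKM in AdGFP, with Myf5, Vcam1 and Cd34 lower in the fit with the replicate block and none past the threshold without it.

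Promoter sequence was examined first, because E2F factors bind short words that can be searched for. In the RefSeq promoter windows of build GRCm38.p6, 250 bases before to 50 after each start, 39 of the 47 genes had an entry. The words TTTCCCGC, TTTGGCGC, TTTCGCGC and TTTGCCGC were sought on both strands, each counted alone even where matches overlap. At least 1 word lay in a window of 16 of the 39 genes, or 41.0%, against 4.64% of the 10127 genes tested in either table that had a window and 2.60% of all 27025 genes of the promoter table. The mean GC content of the windows was 59.2% for the replication genes and 60.7% for the tested genes. TTTCCCGC was found in 8 of the 39 genes, TTTGGCGC in 7, TTTCGCGC in 6 and TTTGCCGC in 0. The 16 genes are Mcm3, Mcm5, Mcm6, Mcm7, Mcm8, Orc1, Orc3, Cdc6, Cdt1, Gins3, Pola1, Pold1, Pold3, Pole2, Rfc3 and Lig1. A match is a description of these letters and not evidence that a factor binds there.

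Stretches of 4 of these windows are shown 5′ to 3′ on the gene's strand with the words in capitals, because they carry the words upstream of the transcript start on which the window is built and lie outside every gene span listed by RefSeq. The Mcm5 stretch is chr8:75109300-75109427 on the plus strand, the Mcm6 stretch chr1:128359706-128359812 on the minus strand, the Gins3 stretch chr8:95633458-95633558 on the plus strand and the Rfc3 stretch chr5:151651209-151651278 on the minus strand. In Mcm5 a TTTCGCGC and a GCGCCAAA overlap, and in Mcm6 a GCGCGAAA and a TTTGGCGC stand apart. Gins3 holds a GCGGGAAA and Rfc3 a TTTCGCGC.
Mcm5: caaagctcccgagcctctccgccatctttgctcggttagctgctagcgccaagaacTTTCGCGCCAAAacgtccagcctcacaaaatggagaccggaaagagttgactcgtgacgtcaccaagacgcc
Mcm6: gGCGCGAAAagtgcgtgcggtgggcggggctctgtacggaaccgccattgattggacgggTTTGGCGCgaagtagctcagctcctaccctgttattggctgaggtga
Gins3: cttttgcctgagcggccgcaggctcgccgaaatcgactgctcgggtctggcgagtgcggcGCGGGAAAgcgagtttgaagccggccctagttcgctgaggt
Rfc3: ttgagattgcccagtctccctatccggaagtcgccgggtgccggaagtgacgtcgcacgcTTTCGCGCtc
In culture these genes had log2 fold changes of -0.82 for Mcm5, -0.74 for Mcm6, -0.32 for Gins3 and -0.46 for Rfc3, and in muscle none of the 4 passed the test.

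The median changes of replication genes with and without a word were close in culture and lay further apart in muscle. In culture the median log2 fold change of AdCRE over AdGFP was -0.62 for the 16 genes with a word, -0.61 for the 23 genes with a window and no word, and -0.60 for the 8 genes without a window. In muscle the median log2 fold change of Chd4dPax7ER over Chd4fl/fl was -0.37 for the 16 genes with a word and -0.47 for the 23 without. For the 8 genes without a window it was -0.41. Of the genes that passed the test in muscle, 2 had a word, 7 had a window without one and 2 had no window. Over all genes tested in muscle, 11.9% passed as lower.

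In cultured myoblasts nearly the whole set was lower in AdCRE than in AdGFP. The log2 fold change was below 0 for 46 of 47 genes, against 51.3% of all genes tested, and the median over the 47 was -0.60, against -0.01 over all 13567 genes tested. These fold changes are on the log2(RPKM + 0.5) scale, which understates changes of genes with low values. In the plain comparison of 4 with 4 libraries, 0 of 47 genes passed an adjusted p of 0.05 in limma, with adjusted p-values from 0.104 for Rfc2 to 0.881 for Orc4; over all genes tested, 0.140% passed as lower and 0.516% as higher. At an unadjusted p under 0.05, 36 of the 47 genes were lower, against 9.25% of all genes tested, and for 23 of the 47 the 4 AdCRE libraries all lay below the 4 AdGFP libraries, against 6.21% of all genes tested.

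With the replicate number as a block, 45 of 47 genes fell and 0 rose, against 18.7% of all genes tested that fell and 17.5% that rose in the same fit. The exceptions were Orc4 and Fen1. The AdCRE library was below the AdGFP library of the same number in all 4 pairs for 45 of the 47 genes, against 27.1% of all genes tested. The median log2 difference over the 47 genes was -0.73 in pair 1, -0.46 in pair 2, -0.57 in pair 3 and -0.65 in pair 4. Without any 1 of the pairs, 43 to 45 genes passed. The size of the fall was moderate: log2 fold changes of the 47 genes ran from -0.99 to 0.03, against -2.15 to 2.88 over all genes tested. In these bulk samples, fewer cells that express a gene and less RNA of it per cell cannot be told apart.

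In satellite cells of injured muscle the set also lay lower in Chd4dPax7ER than in Chd4fl/fl. Numbers do not pair these libraries, so the plain comparison of 4 with 4 is the one given, and its counts are not set against those of the block fit in culture. The log2 fold change was below 0 for 44 of 47 genes, against 51.5% of all genes tested, with a median of -0.38 against -0.02 over all 13344 genes tested. In limma 11 of the 47 passed as lower and 0 as higher, against 11.9% of all genes tested that passed as lower and 14.7% as higher. They were Pold3, Cdc45, Rrm2, Pold2, Rfc5, Rrm1, Rpa1, Rfc2, Pola1, Mcm4 and Cdc7. The 4 Chd4dPax7ER libraries lay below all 4 Chd4fl/fl libraries for 15 of 47 genes (against 14.3% of all genes tested), and the 11 that passed were among these. Orc5, Gins3 and Orc4 had log2 fold changes above 0, of 0.39, 0.25 and 0.01, and did not pass.

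**Figure D1:**
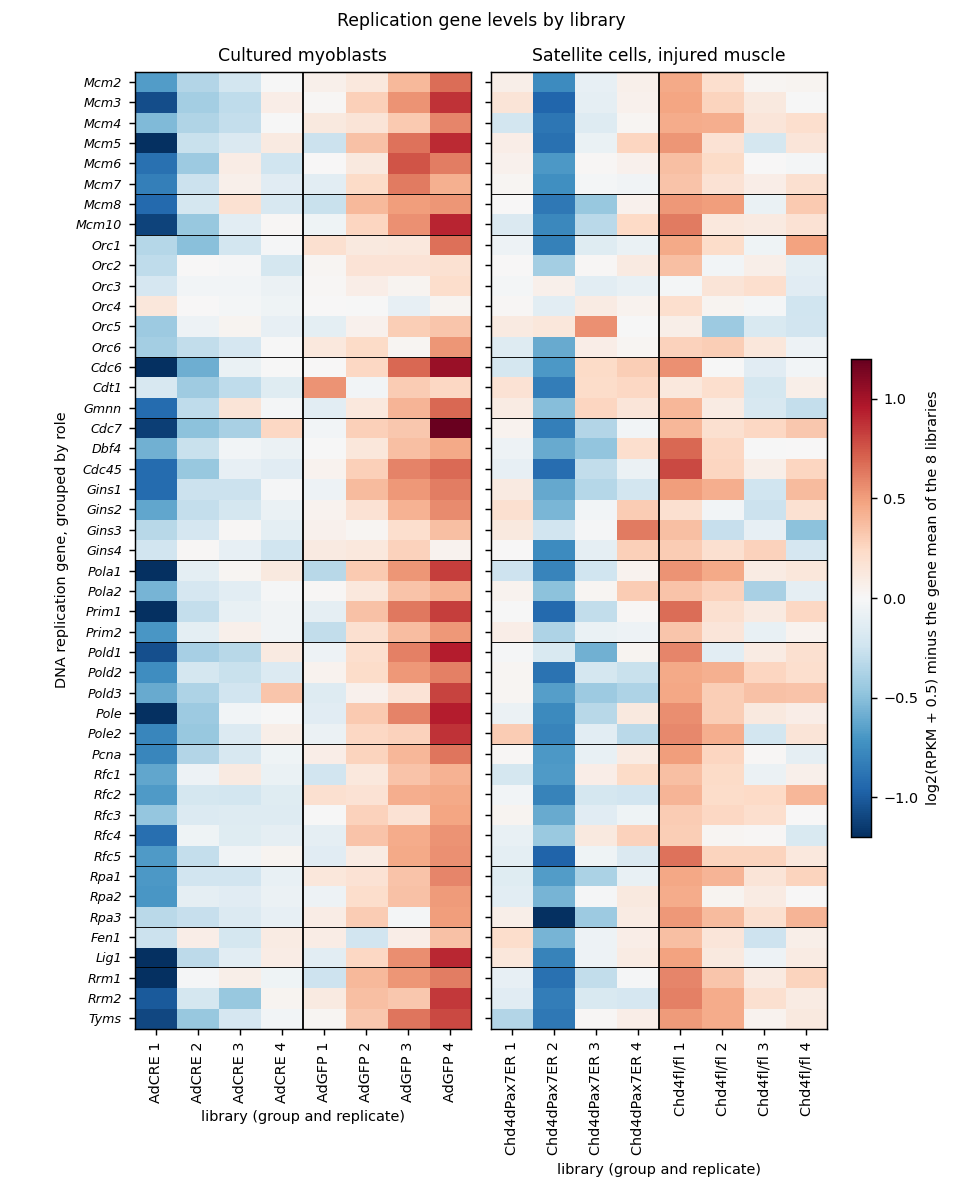
Level of each of the 47 replication genes in each library, as log2(RPKM + 0.5) minus the mean of the gene over the 8 libraries of its setting (colour, blue below and red above that mean); rows are genes by role and columns are libraries. AdCRE replicate 1 and Chd4dPax7ER replicate 2 are the lowest columns, being lowest of 8 for 43 and 42 of the 47 genes.

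How many genes passed in muscle depended on single libraries. Leaving out Chd4dPax7ER replicate 1, 2, 3 or 4 gave 10, 8, 7 or 13 genes, and leaving out Chd4fl/fl replicate 1, 2, 3 or 4 gave 3, 4, 10 or 5. Pold3, Rpa1 and Rrm2 passed in all 8 of these fits, with adjusted p-values up to 0.0168, 0.0253 and 0.0495. Pold2 and Rfc2 passed in 6 of the 8, Mcm4 and Rrm1 in 4, Cdc45, Cdc7 and Pola1 in 3, and Rfc5 in 1. Without Chd4dPax7ER replicate 2, the library with the lowest values, the median log2 fold change of the 47 genes was -0.21.

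Some markers of other cell states also changed. Their counts are to be read against all genes tested, of which 14.7% rose and 11.9% fell in muscle. In culture 17.5% rose and 18.7% fell with the block, and 0.516% rose and 0.140% fell without it. Of 10 genes of differentiating muscle (Myog, Mymk, Mymx, Acta1, Tnnc2, Tnnt3, Myh3, Myh8, Ckm and Mylpf), 8 rose in Chd4dPax7ER, and their summed level ran from 1911 to 4495 RPKM in Chd4dPax7ER and from 589 to 1157 RPKM in Chd4fl/fl. The highest sum was in Chd4dPax7ER replicate 2, the library with the lowest replication genes, and the lowest was in Chd4fl/fl replicate 1, the library with the highest. The libraries between did not all follow this order. Chd4dPax7ER replicate 3 had the lowest muscle sum of its group, 1911 RPKM. Its mean log2 level of the replication genes was 3.63, below 3.74 in replicate 1 and 3.80 in replicate 4. The 6 fibro-adipogenic markers summed to 210 to 351 RPKM in Chd4dPax7ER and 76.7 to 105 RPKM in Chd4fl/fl, with 3 of 6 higher and none at 0. The 10 leukocyte markers summed to 82.4 to 181 RPKM in Chd4dPax7ER, with Cd3e at 0 in all 4 libraries, and to 66.6 to 124 RPKM in Chd4fl/fl. Of the 7 that could be tested, 1 was higher, near the share of all genes. In culture the differentiating muscle genes summed to 1671 to 5868 RPKM in AdCRE and 1266 to 4778 RPKM in AdGFP, and all 9 that could be tested rose in the fit with the replicate block. Replicate 1 of AdCRE and of AdGFP had the lowest mean replication level of its group and also the lowest muscle sum. Replicates 2, 3 and 4 ran the other way. Their mean log2 levels of the replication genes were 3.21, 3.34 and 3.43 in AdCRE, with muscle sums of 5868, 4817 and 3191 RPKM. In AdGFP they were 3.67, 3.85 and 4.07, with muscle sums of 4778, 4370 and 2073 RPKM. The other marker lists in culture summed to 18.5 to 27.9 RPKM in AdCRE and 6.41 to 10.9 RPKM in AdGFP for leukocytes, with Adgre1 at 0 throughout and Tyrobp at 0 in AdGFP, and to 45.9 to 95.4 RPKM in AdCRE and 44.4 to 95.0 RPKM in AdGFP for fibro-adipogenic cells, with Lum at 0 in AdGFP. Single markers moved in culture as well, without the block: Ly6a and Col1a1, 2 of the 3 fibro-adipogenic markers that could be tested, were higher in AdCRE by 2.13 and 1.62 on the log2 scale (adjusted p = 0.0113 and 0.0175), and so was Rgs5, 1 of 3 pericyte markers, by 2.06 (adjusted p = 0.0309). With the block, the 2 leukocyte markers that could be tested were also higher, 2 of 3 fibro-adipogenic markers were higher and 1 lower, 2 of 3 pericyte markers were higher, and 1 of 2 endothelial markers was. The 5 endothelial markers summed to at most 10.9 RPKM in any library, with Emcn at 0 in AdCRE, AdGFP and Chd4fl/fl. The 6 markers of pericytes and smooth muscle summed to 634 to 1047 RPKM in AdCRE and 381 to 799.9 RPKM in AdGFP, with Kcnj8 at 0 in AdGFP, and to 205 to 406 RPKM in Chd4dPax7ER and 111 to 256 RPKM in Chd4fl/fl, with 2 of the 5 that could be tested higher in muscle. The part of any of these markers in the lower replication genes was not tested.

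**Figure D2:**
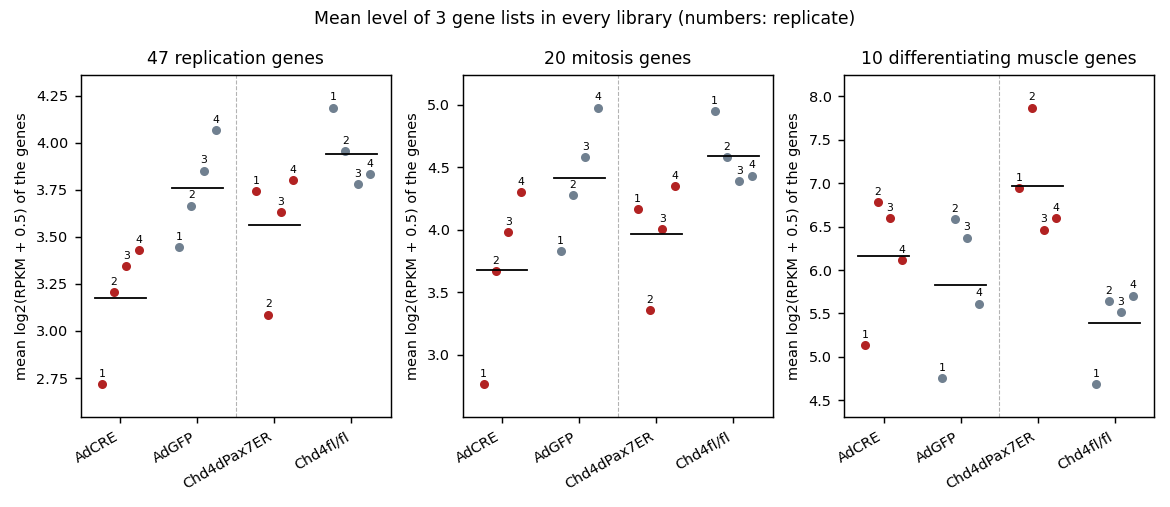
Mean log2(RPKM + 0.5) per library of the 47 replication genes, 20 mitosis genes and 10 differentiating muscle genes; each point is a library with its replicate number, bars are means of 4, and levels are not compared across the dashed line because each table was normalised on its own. Replication and mitosis genes are lowest in AdCRE replicate 1 and Chd4dPax7ER replicate 2.

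The 6 subunits of ORC, which mark origins, included the genes with the smallest changes. In culture 5 of 6 fell in the fit with the block and in muscle 0 of 6 passed. Counts by role, here and below, are to be read against all genes tested. Of these, 18.7% fell in culture with the block and 11.9% in muscle. With so few genes per role, the muscle counts are not read as differences between complexes. Orc4 (ENSMUSG00000026761) had 10.5, 9.59, 9.35 and 9.15 RPKM in AdCRE replicates 1 to 4, and 9.58, 9.50, 8.88 and 9.74 RPKM in AdGFP. In muscle it had 8.97, 8.12, 9.57 and 9.15 RPKM in Chd4dPax7ER, and 10.3, 9.14, 8.72 and 7.47 RPKM in Chd4fl/fl. The groups overlapped in both settings, with log2 fold changes of 0.03 (SE 0.05, block fit, adjusted p = 0.662) in culture and 0.01 (SE 0.11, adjusted p = 0.943) in muscle.

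Orc3 and Orc2 moved little as well. Orc3 (ENSMUSG00000040044) had 8.72, 9.86, 9.84 and 9.61 RPKM in AdCRE, and 10.2, 10.7, 10.3 and 11.7 RPKM in AdGFP. Orc2 (ENSMUSG00000026037) had 14.8, 18.5, 18.1 and 15.8 RPKM in AdCRE, and 18.7, 20.6, 20.7 and 20.9 RPKM in AdGFP. For both genes every AdCRE library was below every AdGFP library, and the falls were small, -0.17 on the log2 scale for Orc3 (SE 0.05, adjusted p = 0.0379 with the block) and -0.26 for Orc2 (SE 0.05, adjusted p = 0.0086 with the block). The call for Orc3 was lost without pair 1, without pair 2 and without pair 4. In muscle Orc3 had a log2 fold change of -0.09 and Orc2 of -0.14, neither past the threshold.

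Orc1, the subunit whose level is known to change through the cell cycle, had the largest fall of the 6 in culture. It averaged 1.76 ± 0.324 RPKM in AdCRE and 2.81 ± 0.650 RPKM in AdGFP (log2 fold change -0.55, SE 0.08, adjusted p = 0.00259 with the block), and 3.17 ± 0.805 RPKM in Chd4dPax7ER and 4.81 ± 0.875 RPKM in Chd4fl/fl. In muscle its groups did not overlap, but its fold change of -0.55 did not pass (adjusted p = 0.0750). Orc5 (ENSMUSG00000029012) is described with the differences between settings, and Orc6 fell by 0.45 on the log2 scale in culture (SE 0.06, adjusted p = 0.00229 with the block).

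The licensing genes Cdc6, Cdt1 and Gmnn, which encodes the CDT1 inhibitor geminin, all fell in culture with the block and all missed the threshold in muscle. Cdc6 (ENSMUSG00000017499) had 1.25, 2.36, 3.57 and 3.78 RPKM in AdCRE, and 3.80, 4.60, 6.42 and 8.29 RPKM in AdGFP. The groups did not overlap, though the highest AdCRE library nearly met the lowest AdGFP library, and the log2 fold change of -0.99 (SE 0.09, adjusted p = 0.000664 with the block) was the largest fall of the 47. In muscle Cdc6 had 7.27, 5.09, 10.1 and 10.5 RPKM in Chd4dPax7ER, and 12.6, 8.47, 7.65 and 8.28 RPKM in Chd4fl/fl. There the groups overlapped throughout (log2 fold change -0.19, SE 0.23, adjusted p = 0.598).

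Geminin was the replication gene with the least change in muscle. Gmnn (ENSMUSG00000006715) had 23.6, 15.2, 26.4 and 24.4 RPKM in Chd4dPax7ER, and 29.1, 23.5, 19.1 and 17.9 RPKM in Chd4fl/fl, so each group averaged 22.4 RPKM and the groups overlapped (log2 fold change -0.0047, SE 0.20, adjusted p = 0.988). In culture Gmnn averaged 9.49 ± 2.96 RPKM in AdCRE and 13.9 ± 3.48 RPKM in AdGFP (log2 fold change -0.55, SE 0.09, adjusted p = 0.00425 with the block). Cdt1 averaged 31.5 ± 2.76 RPKM in AdCRE and 46.1 ± 7.48 RPKM in AdGFP (log2 fold change -0.53, SE 0.06, adjusted p = 0.00125 with the block), and 12.6 ± 3.91 RPKM in Chd4dPax7ER and 13.0 ± 1.60 RPKM in Chd4fl/fl. In muscle its 3 Chd4dPax7ER libraries other than replicate 2 lay between 14.2 and 14.9 RPKM, within or just above the range of Chd4fl/fl, and replicate 2 had 6.79 RPKM.

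The MCM2-7 genes encode the 6 subunits of the replicative helicase and fell together in culture, 6 of 6 with the block, with log2 fold changes from -0.85 to -0.58. Their summed level was 101, 139, 161 and 175 RPKM in AdCRE and 179, 205, 258 and 287 RPKM in AdGFP, so that the highest AdCRE library and the lowest AdGFP library nearly touched. Mcm3 (ENSMUSG00000041859) had 11.9, 19.0, 20.5 and 26.9 RPKM in AdCRE, and 25.7, 31.0, 37.2 and 46.8 RPKM in AdGFP. Its groups overlapped by 1 library, and it fell by 0.85 on the log2 scale (SE 0.06, adjusted p = 0.000349 with the block). Mcm5 (ENSMUSG00000005410) had 8.40, 17.6, 18.8 and 23.0 RPKM in AdCRE, and 17.7, 27.4, 33.7 and 40.2 RPKM in AdGFP. AdCRE replicates 3 and 4 lay above the lowest AdGFP library, and the log2 fold change was -0.82 (SE 0.07, adjusted p = 0.000407 with the block).

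In muscle 1 of the 6 helicase genes passed. Mcm4 (ENSMUSG00000022673) had 34.5, 21.8, 36.1 and 40.9 RPKM in Chd4dPax7ER, and 55.1, 54.6, 44.5 and 46.5 RPKM in Chd4fl/fl. No Chd4dPax7ER library reached the lowest Chd4fl/fl library, and Mcm4 fell by 0.61 on the log2 scale (SE 0.18, adjusted p = 0.0310). The other 5 had log2 fold changes from -0.43 for Mcm3 to -0.29 for Mcm6 and did not pass. The summed level of the 6 genes was 230.4, 128, 215 and 236 RPKM in Chd4dPax7ER, and 305, 269.98, 231 and 239.5 RPKM in Chd4fl/fl, with Chd4dPax7ER replicate 4 above the lowest Chd4fl/fl library.

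Although the protein ring holds 1 copy of each MCM2-7 subunit, the transcripts were not at equal levels per length. Mcm4 was the highest of the 6 in all 8 culture libraries, and Mcm6 the highest in all 8 muscle libraries. The ratio of the highest to the lowest of the 6 ran from 2.05 to 3.88 in AdCRE and from 1.75 to 2.90 in AdGFP, and from 1.90 to 2.08 in Chd4dPax7ER and from 1.80 to 2.02 in Chd4fl/fl. AdCRE replicate 1 held the ratio of 3.88, with Mcm5 as its lowest member.

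Mcm10 and Mcm8 encode MCM proteins outside the ring. Mcm10 (ENSMUSG00000026669), which helps activate the helicase, had 1.33, 2.39, 3.12 and 3.48 RPKM in AdCRE, and 3.31, 4.22, 5.29 and 6.92 RPKM in AdGFP. The groups overlapped by 1 library, and the log2 fold change was -0.84 (SE 0.08, adjusted p = 0.000654 with the block). Mcm8, which acts in recombination repair, fell by 0.57 in culture (SE 0.08, adjusted p = 0.00211 with the block). In muscle their log2 fold changes were -0.52 for Mcm10 and -0.63 for Mcm8, and neither passed.

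Of the 7 genes for the origin-firing kinase and for CDC45 and GINS, 7 fell in culture with the block and 2 in muscle. Cdc7 (ENSMUSG00000029283), the catalytic subunit of the kinase, had 1.13, 2.04, 2.24 and 3.75 RPKM in AdCRE, and 2.99, 3.87, 3.99 and 7.62 RPKM in AdGFP. In muscle it had 9.48, 5.01, 7.09 and 9.01 RPKM in Chd4dPax7ER, and 12.3, 10.6, 11.0 and 11.7 RPKM in Chd4fl/fl. AdCRE replicate 4 overlapped AdGFP, while the muscle groups did not overlap. Cdc7 fell by 0.88 on the log2 scale in culture (SE 0.08, adjusted p = 0.000573 with the block) and by 0.58 in muscle (SE 0.18, adjusted p = 0.0388). Its activator Dbf4 had a similar change in both, -0.48 in culture (SE 0.05, adjusted p = 0.000989 with the block) and -0.47 in muscle (SE 0.21, adjusted p = 0.136).

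Cdc45 (ENSMUSG00000000028), whose protein joins the ring to form the active helicase, had 20.7, 11.6, 18.0 and 21.2 RPKM in Chd4dPax7ER, and 38.9, 26.8, 23.5 and 26.7 RPKM in Chd4fl/fl. The groups did not overlap (log2 fold change -0.69, SE 0.21, adjusted p = 0.0372), and in culture Cdc45 fell by 0.81 (SE 0.05, adjusted p = 0.000232 with the block). Gins2 (ENSMUSG00000031821) was among the least changed in muscle, with 3.25, 1.74, 2.71 and 3.55 RPKM in Chd4dPax7ER and 3.24, 2.70, 2.24 and 3.22 RPKM in Chd4fl/fl. Its muscle groups overlapped (log2 fold change -0.04, SE 0.21, adjusted p = 0.907), although its 4 AdCRE libraries, from 2.01 to 3.16 RPKM, all lay below its 4 AdGFP libraries, from 3.50 to 5.24 RPKM. The products of the 4 GINS genes form 1 complex, and the log2 fold changes in muscle were -0.54 for Gins1, -0.04 for Gins2, 0.25 for Gins3 and -0.29 for Gins4, with SEs of 0.20 to 0.22 and none past the threshold.

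Polymerase alpha and primase, which make the primers, are encoded by Pola1, Pola2, Prim1 and Prim2, of which 4 fell in culture with the block and 1 in muscle. Prim1 (ENSMUSG00000025395), the catalytic primase subunit, had 1.81, 4.12, 4.78 and 4.97 RPKM in AdCRE, and 4.71, 6.67, 8.25 and 9.53 RPKM in AdGFP. AdCRE replicates 3 and 4 lay just above the lowest AdGFP library, and the log2 fold change was -0.85 (SE 0.09, adjusted p = 0.000884 with the block). Pola1 (ENSMUSG00000006678), the catalytic polymerase subunit, had 7.05, 4.67, 7.06 and 8.72 RPKM in Chd4dPax7ER, and 12.5, 11.7, 9.10 and 9.35 RPKM in Chd4fl/fl. The groups did not overlap and Pola1 fell by 0.62 (SE 0.18, adjusted p = 0.0347). Prim1 had no overlap between groups in muscle either and did not pass (log2 fold change -0.61, SE 0.22, adjusted p = 0.0647).

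The accessory subunit of polymerase alpha was among the least changed genes in muscle. Pola2 (ENSMUSG00000024833) had 14.1, 9.63, 13.9 and 17.1 RPKM in Chd4dPax7ER, and 17.5, 16.7, 10.3 and 12.7 RPKM in Chd4fl/fl. The groups overlapped (log2 fold change -0.06, SE 0.20, adjusted p = 0.855). In culture Pola1 fell by 0.67, Pola2 by 0.45 and Prim2 by 0.40 on the log2 scale, with adjusted p-values of 0.00283, 0.00102 and 0.00404 in the block fit.

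The polymerases delta and epsilon, which extend the primers, held the gene with the largest change in muscle among those that passed. Pold3 (ENSMUSG00000030726), an accessory subunit of polymerase delta, had 11.4, 6.91, 8.11 and 8.51 RPKM in Chd4dPax7ER, and 15.6, 13.8, 14.4 and 14.3 RPKM in Chd4fl/fl. The groups were well apart, with Chd4dPax7ER at 60.1% of Chd4fl/fl (log2 fold change -0.72, SE 0.14, adjusted p = 0.0051). Pold2 (ENSMUSG00000020471), another accessory subunit, had 13.7, 7.06, 11.6 and 11.1 RPKM in Chd4dPax7ER, and 18.6, 18.3, 16.2 and 15.6 RPKM in Chd4fl/fl. Its groups did not overlap either (log2 fold change -0.67, SE 0.18, adjusted p = 0.0226). In culture Pold3 fell by 0.44 (SE 0.04, adjusted p = 0.000727 with the block) and Pold2 by 0.70 (SE 0.07, adjusted p = 0.000677 with the block).

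The catalytic subunits of both polymerases were among the 10 largest falls in culture. Pole (ENSMUSG00000007080), of polymerase epsilon, had 1.48, 2.97, 4.10 and 4.18 RPKM in AdCRE, and 3.78, 5.32, 6.60 and 8.52 RPKM in AdGFP. Pold1 (ENSMUSG00000038644), of polymerase delta, had 2.62, 4.42, 4.65 and 6.48 RPKM in AdCRE, and 5.72, 6.93, 9.35 and 11.9 RPKM in AdGFP. Each AdCRE library was below the AdGFP library of its number, while the highest AdCRE libraries overlapped the lowest AdGFP library for both genes. Pole fell by 0.86 on the log2 scale (SE 0.09, adjusted p = 0.000759 with the block) and Pold1 by 0.84 (SE 0.07, adjusted p = 0.00053 with the block). In muscle Pole, Pole2 and Pold1 had log2 fold changes of -0.52, -0.47 and -0.37 and did not pass.

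**Figure D3:**
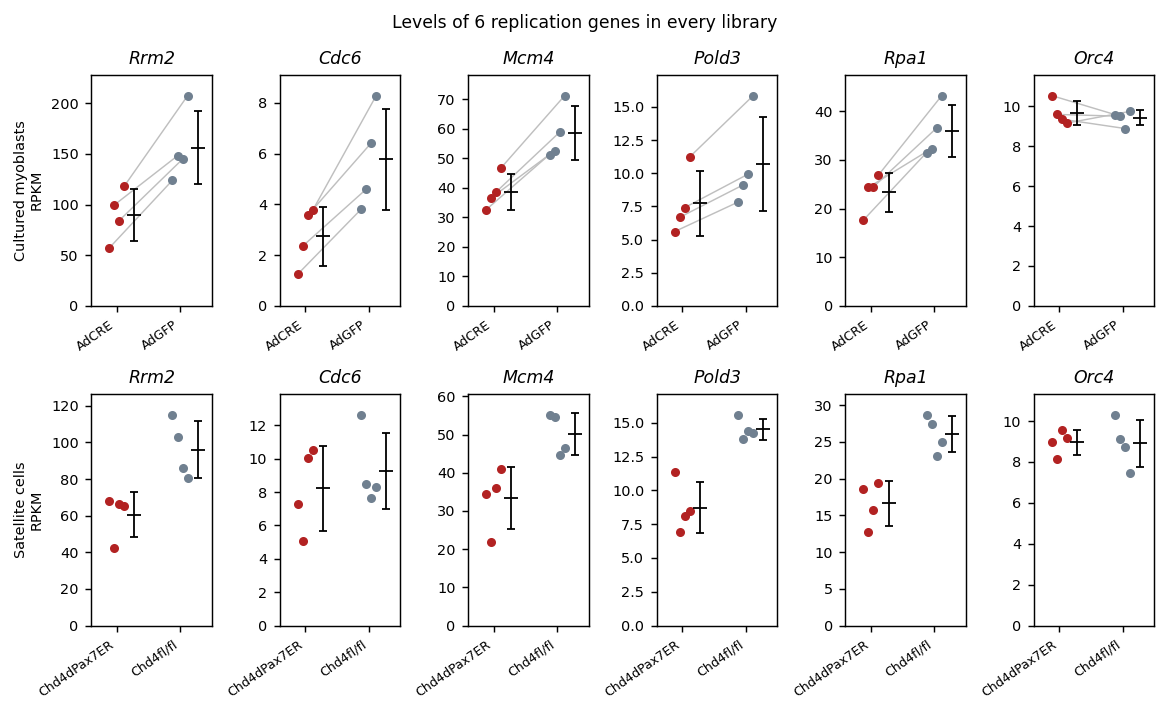
RPKM of Rrm2, Cdc6, Mcm4, Pold3, Rpa1 and Orc4 in every library (points), with mean and SD of 4 libraries (bars); grey lines join libraries of the same replicate number in culture, where numbers pair the samples, and each axis starts at 0. Each AdCRE library lies below its AdGFP partner except for Orc4, and in muscle Rrm2, Mcm4, Pold3 and Rpa1 have no overlap between groups.

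The clamp Pcna and the 5 subunits of its loader, replication factor C, fell in 6 of 6 cases in culture with the block and in 2 of 6 in muscle. Rfc5 (ENSMUSG00000029363) had 6.35, 3.31, 6.65 and 6.07 RPKM in Chd4dPax7ER, and 11.2, 8.47, 8.43 and 7.63 RPKM in Chd4fl/fl. Rfc2 (ENSMUSG00000023104) had 4.94, 2.69, 4.31 and 4.24 RPKM in Chd4dPax7ER, and 6.86, 5.97, 6.06 and 6.84 RPKM in Chd4fl/fl. Neither gene had overlapping groups, with log2 fold changes of -0.66 for Rfc5 (SE 0.21, adjusted p = 0.0456) and -0.63 for Rfc2 (SE 0.17, adjusted p = 0.0227). Pcna averaged 51.0 ± 11.3 RPKM in Chd4dPax7ER and 63.7 ± 12.2 RPKM in Chd4fl/fl and did not pass (log2 fold change -0.33, adjusted p = 0.222). In culture it averaged 36.2 ± 7.54 RPKM in AdCRE and 58.4 ± 9.84 RPKM in AdGFP, and it fell by 0.69 (SE 0.05, adjusted p = 0.000349 with the block).

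RPA coats single-stranded DNA at the fork. Rpa1 (ENSMUSG00000000751), its large subunit, had 18.6, 12.8, 15.7 and 19.4 RPKM in Chd4dPax7ER, and 28.6, 27.5, 23.1 and 25.0 RPKM in Chd4fl/fl. The lowest Chd4fl/fl library stood well above the highest Chd4dPax7ER library (log2 fold change -0.65, SE 0.13, adjusted p = 0.00758). Rpa3 had the largest log2 fold change of the 47 genes in muscle, -0.75, without overlap between groups, and did not pass (SE 0.26, adjusted p = 0.0644); Chd4dPax7ER replicate 2 had 5.11 RPKM and the other 3 Chd4dPax7ER libraries 9.25 to 13.6 RPKM. Rpa2 did not pass in muscle (log2 fold change -0.29). In culture 3 of 3 RPA genes fell with the block, by 0.62 for Rpa1, 0.51 for Rpa2 and 0.43 for Rpa3 on the log2 scale.

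Fen1 and Lig1 encode the flap nuclease and the ligase that finish Okazaki fragments. Fen1 (ENSMUSG00000024742) had 0.432, 0.679, 0.465 and 0.692 RPKM in AdCRE, and 0.686, 0.453, 0.681 and 0.926 RPKM in AdGFP. These were the lowest levels of the 47 genes in culture, and the groups overlapped (log2 fold change -0.15, SE 0.14, adjusted p = 0.433 with the block). In muscle Fen1 had 18.9, 10.9, 15.6 and 17.2 RPKM in Chd4dPax7ER, and 21.1, 18.1, 13.6 and 17.1 RPKM in Chd4fl/fl, ranks 19 and 18 of the 47 by mean level. The muscle groups overlapped as well (log2 fold change -0.17, SE 0.18, adjusted p = 0.536). The Fen1 gene overlaps Tmem258 in the RefSeq annotation, and whether reads were assigned differently in the 2 tables was not tested. Lig1 fell by 0.79 in culture (SE 0.09, adjusted p = 0.000946 with the block) and did not pass in muscle (log2 fold change -0.32, adjusted p = 0.286). In all, 12 of the 47 genes overlap a protein-coding gene, Mcm7, Orc1, Orc3, Orc4, Cdc45, Gins2, Pold2, Pole2, Rfc4, Rpa1, Fen1 and Lig1, and reads there are less certain because no source used here says how reads were counted.

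Among the enzymes of deoxynucleotide supply, both subunits of ribonucleotide reductase had the highest transcript levels per length of the set and fell in both settings. Rrm2 (ENSMUSG00000020649), the small subunit of ribonucleotide reductase that is made in S phase, had 57.0, 99.4, 84.2 and 118 RPKM in AdCRE, and 124, 148, 145 and 207 RPKM in AdGFP. In muscle Rrm2 had 68.2, 42.1, 66.4 and 65.4 RPKM in Chd4dPax7ER, and 115, 103, 86.3 and 80.5 RPKM in Chd4fl/fl. It was the highest of the 47 in all 4 groups, and its groups did not overlap in either setting. Rrm2 fell by 0.82 on the log2 scale in culture (SE 0.08, adjusted p = 0.000711 with the block) and by 0.67 in muscle (SE 0.17, adjusted p = 0.0179).

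Rrm1 (ENSMUSG00000030978), the large subunit, ranked next in level in all 4 groups. It had 63.4, 36.1, 55.2 and 67.0 RPKM in Chd4dPax7ER, and 102, 85.7, 73.0 and 81.4 RPKM in Chd4fl/fl. The groups did not overlap (log2 fold change -0.65, SE 0.19, adjusted p = 0.0307). In culture Rrm1 averaged 68.9 ± 24.3 RPKM in AdCRE and 104 ± 25.0 RPKM in AdGFP, and it fell by 0.64 (SE 0.10, adjusted p = 0.00343 with the block). Tyms (ENSMUSG00000025747), thymidylate synthase, had 2.70, 4.49, 5.44 and 6.18 RPKM in AdCRE, and 6.45, 8.02, 10.2 and 11.3 RPKM in AdGFP. Its culture groups did not overlap, and it fell by 0.89 (SE 0.07, adjusted p = 0.000349 with the block); in muscle its log2 fold change of -0.56 did not pass (adjusted p = 0.0817).

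**Figure D4:**
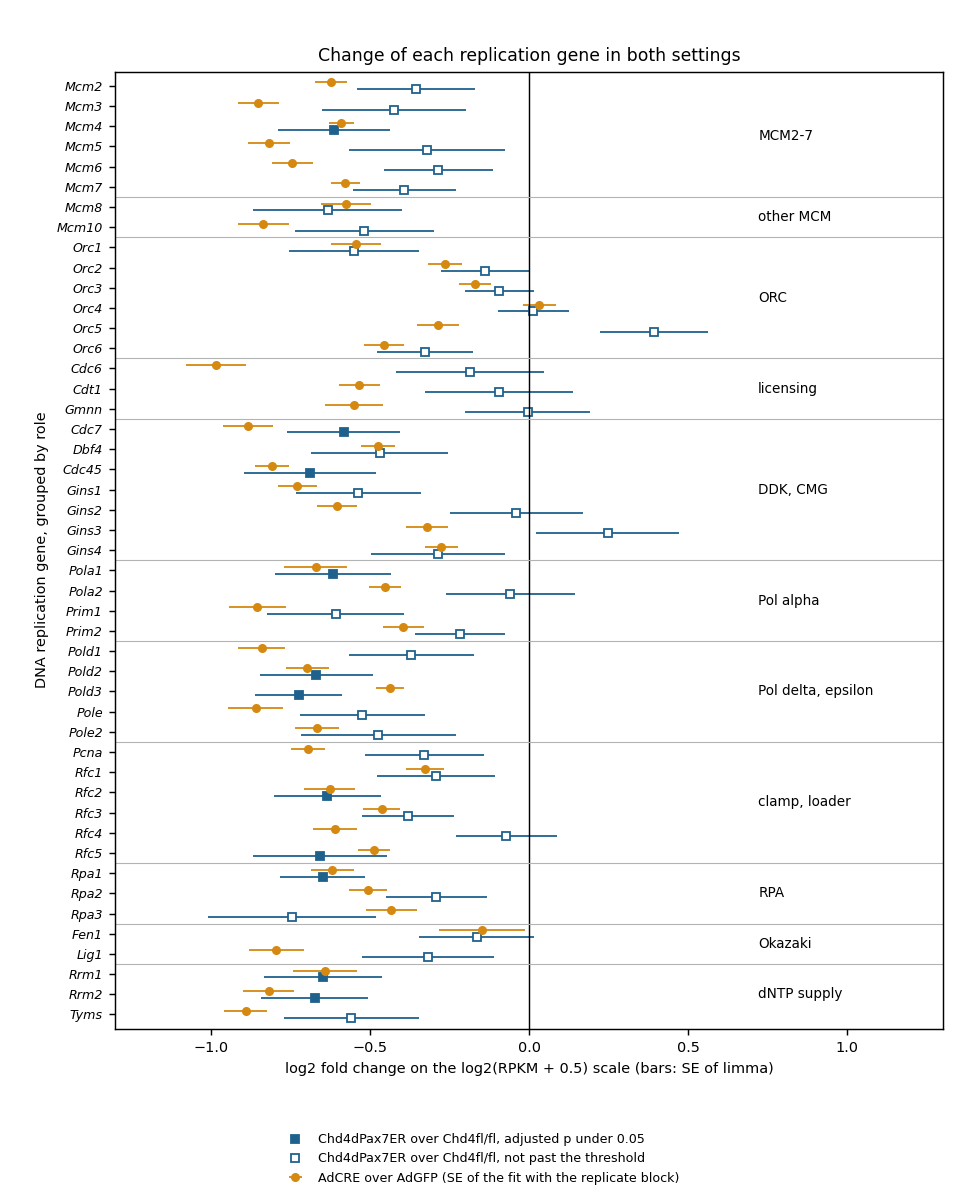
Log2 fold change of each of the 47 genes by role, with bars of 1 limma SE; squares are Chd4dPax7ER over Chd4fl/fl (filled where adjusted p is under 0.05, 11 genes) and circles AdCRE over AdGFP with the SE of the block fit. All but Orc4 lie below 0 in culture, and Orc4, Orc5 and Gins3 lie above 0 in muscle.

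The changes in the 2 settings were then compared gene by gene. All 11 genes that passed in muscle were among the 45 that passed in culture with the block. With 45 of 47 passing there, this overlap was nearly fixed in advance and is not read as a result. Log2 fold changes were below 0 in both settings for 44 of 47 genes. That count too was nearly fixed, by 46 of 47 below 0 in culture and 44 of 47 in muscle. The log2 fold change was lower in culture than in muscle for 35 of 47 genes. This share was not counted over all genes tested, and each table was normalised on its own. Across the 47 genes the log2 fold changes of the settings had a Pearson r of 0.485, given as a description since the genes are not independent. The difference between the settings, from the plain fits with their SEs combined, passed for 0 of 47 genes, against 5.01% of the 11941 genes tested in both tables. With the block in culture it passed for 3 of 47, a smaller share than the 16.6% of these 11941 genes.

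Those 3 were Cdc6, Orc5 and Rfc4, each with a fall in culture and none past the threshold in muscle. Orc5 had 3.25, 3.33, 4.59 and 2.98 RPKM in Chd4dPax7ER, and 3.15, 2.08, 2.57 and 2.47 RPKM in Chd4fl/fl. In culture Orc5 had 3.23, 4.33, 4.65 and 4.20 RPKM in AdCRE, and 4.16, 4.73, 5.71 and 5.87 RPKM in AdGFP. It thus lay higher in muscle for 3 of 4 Chd4dPax7ER libraries than for any Chd4fl/fl library, and lower in culture in each pair (-0.29, SE 0.07, adjusted p = 0.0151 with the block, not past the threshold without pair 4), with a difference of log2 fold changes, muscle minus culture, of 0.68 (SE 0.18, adjusted p = 0.0173). Rfc4 (ENSMUSG00000022881) had 14.8, 11.5, 17.2 and 19.2 RPKM in Chd4dPax7ER, and 19.6, 16.1, 15.98 and 13.9 RPKM in Chd4fl/fl. In culture Rfc4 had 5.06, 9.54, 8.92 and 9.14 RPKM in AdCRE, and 9.19, 12.7, 13.7 and 14.6 RPKM in AdGFP. Its muscle groups overlapped, and the difference was 0.54 (SE 0.17, adjusted p = 0.0431), while that of Cdc6 was 0.80 (SE 0.25, adjusted p = 0.0382).

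By mean level Rrm2 and Rrm1 led the 47 genes in all 4 groups. The 5 highest were Rrm2, Rrm1, Mcm4, Pcna and Cdt1 in AdCRE and in AdGFP, and Rrm2, Rrm1, Pcna and Mcm6 led in Chd4dPax7ER and in Chd4fl/fl, where Cdt1 ranked 21 and 26. The lowest in culture were Fen1 and Orc1, and in muscle Mcm8, at 2.48 ± 0.832 RPKM in Chd4dPax7ER, and Orc5, at 2.57 ± 0.442 RPKM in Chd4fl/fl. Pcna and Mcm4 were neighbours in AdGFP at 58.4 ± 9.84 and 58.5 ± 9.13 RPKM and did not differ beyond their spread.

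Genes that work beside the replication machinery, in lists that do not share members with it, were counted in the same fits. These counts are to be read against all genes tested, of which 18.7% fell and 17.5% rose in culture with the block, and 11.9% fell and 14.7% rose in muscle; without the block, none of the genes of these lists passed in culture. Of 15 E2F and G1/S regulators, 11 fell and 1 rose in culture with the block, and 6 fell and 0 rose in muscle. Ccna2, the S-phase cyclin, averaged 15.7 ± 6.57 RPKM in AdCRE and 29.0 ± 8.73 RPKM in AdGFP (log2 fold change -0.93, adjusted p = 0.00094 with the block), and 33.6 ± 7.34 RPKM in Chd4dPax7ER and 56.8 ± 6.13 RPKM in Chd4fl/fl (-0.77, adjusted p = 0.00811). The gene that rose in culture was Rb1, which encodes a repressor of E2F (0.32). E2f7 fell by 1.04 and Rbl1 by 1.04 on the log2 scale in muscle (adjusted p = 0.0255 and 0.0063), and both also fell in culture.

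Of 22 other replication subunits and fork proteins, 17 fell in culture with the block and 6 in muscle, and 0 rose in either. Clspn, a fork protein needed for checkpoint signalling, changed most in culture (log2 fold change -1.03, SE 0.11, adjusted p = 0.00095 with the block), and Tipin, another fork protein, in muscle (-0.69, SE 0.21, adjusted p = 0.0389). Of 10 genes of chromatin assembly behind the fork, 9 fell in culture with the block and 2 in muscle, Nasp and Asf1a, which are histone chaperones (log2 fold changes -0.57 and -0.29); the muscle count is near the share of all genes. Of 10 other genes of nucleotide synthesis, 8 fell in culture with the block and 4 in muscle, where Dut, which removes dUTP, averaged 20.8 ± 4.85 RPKM in Chd4dPax7ER and 38.6 ± 2.84 RPKM in Chd4fl/fl (-0.91, SE 0.16, adjusted p = 0.00334). Of 8 replication checkpoint genes that could be tested, 7 fell in culture with the block and 5 in muscle, among them Chek1, the checkpoint kinase (-0.85 in culture and -0.77 in muscle).

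Genes of a later phase of the cell cycle were lower too. All 20 mitosis genes fell in culture with the block and 10 of 20 in muscle, with medians of -0.71 and -0.60 on the log2 scale. Aurkb, a mitotic kinase, averaged 6.98 ± 2.90 RPKM in Chd4dPax7ER and 13.6 ± 1.15 RPKM in Chd4fl/fl (log2 fold change -1.02, SE 0.29, adjusted p = 0.0283), and Mki67, a marker of cycling cells, averaged 18.4 ± 8.58 RPKM in AdCRE and 34.9 ± 12.7 RPKM in AdGFP (-0.98, SE 0.10, adjusted p = 0.000845 with the block). Of 7 genes of CDK inhibitors, which hold back entry into S phase, 3 rose and 1 fell in culture with the block, and 2 rose and 1 fell in muscle, counts that on 7 genes are not read as particular to the list. Cdkn1a averaged 669 ± 134 RPKM in Chd4dPax7ER and 281 ± 12.9 RPKM in Chd4fl/fl (log2 fold change 1.23, SE 0.12, adjusted p = 0.000255), and 424 ± 43.1 RPKM in AdCRE and 314 ± 34.7 RPKM in AdGFP (0.44, SE 0.07, adjusted p = 0.00345 with the block).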

How the data were processed

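RNA was measured in 16 libraries, 4 per group, and the 8 ATAC-seq samples of the series were not analysed here. The authors deposited 1 table of RPKM values per setting; per the submitters' processing notes the tools include HISAT2 2.1.0, cutadapt 1.18, Picard 2.18.15 and DESeq2 3.6, with builds mm10 and GRCm38, but which of them made the tables, how reads were counted and whether strand was used are not stated there. Sums of RPKM ran from 288659 to 326812 per library in culture and from 286802 to 306114 in muscle; the number of reads is unknown, so no counting interval is given.

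A gene entered the tests of a table where 4 or more of its 8 libraries reached 0.5 RPKM (13567 in culture, 13344 in muscle). limma 3.58.1 (R 4.3.3) was run on log2(RPKM + 0.5) with a mean-variance trend. Benjamini-Hochberg adjustment covered every gene tested in the table, with 0.05 as the threshold. Each table was fitted and normalised on its own, so levels are not compared across tables. The difference between settings was taken over the root of the summed squared SEs. The fits were tested on simulated data with known changes.

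Deviations from the group mean correlated between same-numbered libraries at 0.852, 0.711, 0.720 and 0.856 in culture, so numbers pair these samples, and at -0.0967 to 0.0499 in muscle, where they do not. The block fit is therefore given for culture.

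All 47 genes were counted by role. Those given in every library were, in each comparison, the 10 largest falls past the threshold, the 4 smallest changes and the genes that differed between settings; others are given by means. Related lists name up to 3 genes past the threshold by size, and Rb1 was named after its value was seen. The genes, lists and markers were chosen with earlier results of these data known. Alternatives were other pseudocounts, filters, scalings and variance models, the replicate block and leaving out each library. Promoter windows come from RefSeq, GRCm38.p6, in which 39 of 47 genes were matched by symbol.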

Additional observations from a re-analysis of the deposited data

Results flagged for a closer look

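Among 188 groups of 4 libraries (47 genes in 4 groups), 14 held a library far from the other 3 by Dixon's criterion, and chance alone flags about 1 in 20 groups. In AdCRE the far library was replicate 1 each time, the low one: Rfc2 at 3.83, Rfc3 at 5.40, Rfc4 at 5.06, Rpa2 at 8.18 and Rrm1 at 32.7 RPKM. In AdGFP it was replicate 4 for Orc1, high at 3.78 RPKM, and replicate 1 for Orc2, low at 18.7 RPKM. In Chd4dPax7ER it was replicate 2 each time, again low: Mcm6 at 33.3, Mcm7 at 19.1, Orc1 at 1.97, Cdt1 at 6.79 and Rrm2 at 42.1 RPKM. In Chd4fl/fl it was replicate 1, high, for Mcm10 at 6.32 and Cdc6 at 12.6 RPKM.

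The change differed between settings for 3 genes in the fit with the replicate block in culture. The log2 fold change of Chd4dPax7ER over Chd4fl/fl minus that of AdCRE over AdGFP was 0.80 for Cdc6, 0.68 for Orc5 and 0.54 for Rfc4. None of these differences passed without the block, where the adjusted p-values were 0.289, 0.0879 and 0.287.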

How the results depend on the processing

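In culture the replicate block moved the count of replication genes past the threshold as lower to 45, against 0 without it, and that over all genes to 2536 lower and 2371 higher, against 19 and 70. Without it, 0 of 47 passed under every alternative run; over all genes, 12 passed as lower with no filter, and leaving out 1 library gave 2 to 4 lower and 14 to 40 higher. Within the block fit, 43 to 45 of 47 passed under every alternative run, of which the other pseudocounts, filters, scalings and variance model were chosen after seeing the data; over all genes, 1674 fell with no filter, and leaving out 1 pair gave 1602 to 2044 lower and 1555 to 1963 higher.

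In muscle the same 11 genes passed with pseudocounts of 0.1 and 1, with RPKM of at least 1, and with TPM or quantile scaling. With no filter 5 passed, and with no variance trend 6. The cause was not tested in either case. Leaving out 1 library gave 3 to 13 genes, and 1034 to 1436 lower over all genes. With the replicate block, where numbers do not pair the samples, 10 passed: Mcm4 and Pola1 were lost and Prim1 was gained. Leaving out pair 1, 2, 3 or 4 in that fit gave 1, 2, 2 or 7 genes, and over all genes 554, 392, 467 or 666 lower and 1000, 892, 1023 or 1160 higher. The median log2 fold change of the 47 genes stayed below 0 under every alternative run, from -0.69 to -0.49 in culture and from -0.49 to -0.21 in muscle.

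The difference between settings passed for 3 genes with the block in culture, for 2 with it in both settings and for 0 without it; leaving out 1 library gave 0 to 1 and leaving out a pair with the block 0 to 13.

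The sign turned for some genes that did not pass in the setting concerned. With all libraries, their log2 fold changes in muscle lay as far from 0 as -0.19 for Cdc6 and 0.25 for Gins3. Orc4 in muscle had -0.037 with TPM and -0.000424 with quantile scaling. Leaving out 1 library, the log2 fold change ran from -0.0083 to 0.056 for Orc4 in culture, and in muscle from -0.063 to 0.082 for Orc4, -0.31 to 0.012 for Cdc6, -0.19 to 0.17 for Cdt1, -0.10 to 0.17 for Gmnn, -0.15 to 0.14 for Gins2, -0.20 to 0.094 for Pola2 and -0.17 to 0.064 for Rfc4. In the block fit, leaving out pair 1 gave -0.00071 for Orc4 in culture, and in muscle 0.0051 for Cdc6, 0.092 for Gmnn, 0.022 for Pola2 and 0.034 for Rfc4; leaving out pair 2 gave 0.22 for Cdt1, 0.20 for Gmnn, 0.12 for Gins2, 0.18 for Pola2, 0.059 for Rfc4 and 0.014 for Fen1; leaving out pair 3 gave -0.025 for Orc4, and leaving out pair 4 gave -0.074 for Orc4 and -0.041 for Gins3. Depth is unknown, so low genes such as Fen1 in culture are the least certain.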
